A study of Homo sapiens with 12 samples.

Results

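AP-1 and immediate early genes were followed through 9 genes in LNCaP cells depleted of BRG1, the ATPase of the SWI/SNF chromatin remodelling complex that SMARCA4 encodes. The members are the JUN family (JUN, JUNB, JUND), 3 genes of the FOS family (FOS, FOSB, FOSL2) and the immediate early genes EGR1, IER2 and IER3. They were found by symbol and are 9 of the 63568 genes in the table. LNCaP is a line of human prostate cancer cells grown from a lymph node metastasis. The cells received a non-targeting siRNA pool (si-NT) or 1 of a pair of SMARCA4 siRNAs, called siRNA 2 and siRNA 3 here after the columns of the table, with the lipid reagent DharmaFECT 2. The sample labels and the paper number the SMARCA4 siRNAs 1 and 2 instead. Which of them each column number stands for is not given, so siRNA 2 here need not be their number 2. RNA was collected at 72 h, or at 144 h from cells that were split and transfected again at 72 h, so that time and the second transfection cannot be told apart. There were 2 si-NT libraries and 4 BRG1 depleted libraries (2 for each siRNA) at each time point, 12 in all. Nothing in the labels says that the 2 replicates of a condition were separate cultures, so every p-value measures the spread between these libraries, which may be technical.

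AP-1 is a transcription factor made of pairs of leucine zipper proteins, in which a JUN protein joins another JUN protein or a FOS protein. Immediate early genes are switched on within minutes of a signal, without new protein synthesis, mostly through MAP kinases acting on factors that already sit at their promoters, and their transcripts decay quickly. Growth factors, serum and stress all induce them, and JUND is the family member that tends to be present in resting cells.

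The 250 bases upstream of the RefSeq transcription start are shown for JUN and JUNB, the members that changed at 144 h. They are also shown for EGR1, the member whose window held the binding element of serum response factor. The windows are chr1:59249720-59249969 (reverse strand) for JUN, chr19:12902050-12902299 (forward) for JUNB and chr5:137800918-137801167 (forward) for EGR1, all in GRCh37. Capitals mark the motifs found.
JUN: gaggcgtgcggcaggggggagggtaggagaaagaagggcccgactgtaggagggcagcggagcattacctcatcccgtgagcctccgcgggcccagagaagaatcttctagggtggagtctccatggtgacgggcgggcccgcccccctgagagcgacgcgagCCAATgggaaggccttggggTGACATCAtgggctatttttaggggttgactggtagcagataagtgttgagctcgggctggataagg
JUNB: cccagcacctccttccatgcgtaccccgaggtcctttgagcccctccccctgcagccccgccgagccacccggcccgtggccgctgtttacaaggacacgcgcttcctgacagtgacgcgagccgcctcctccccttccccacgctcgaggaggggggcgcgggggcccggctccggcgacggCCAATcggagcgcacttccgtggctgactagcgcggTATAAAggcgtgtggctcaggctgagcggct
EGR1: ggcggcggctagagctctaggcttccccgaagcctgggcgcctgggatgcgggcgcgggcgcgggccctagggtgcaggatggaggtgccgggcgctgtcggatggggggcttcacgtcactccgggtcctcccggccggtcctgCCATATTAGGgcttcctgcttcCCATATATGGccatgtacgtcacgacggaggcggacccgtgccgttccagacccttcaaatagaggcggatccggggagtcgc
In the JUN window the capitals are CCAAT, starting 87 bases before the start site, and TGACATCA, the variant AP-1 site known from this promoter, starting 67 bases before it. In JUNB they are CCAAT at 67 bases and TATAAA at 31 bases before the start, and in EGR1 they are a pair of CArG boxes, the binding element of serum response factor, at 105 and 83 bases. Among the 35116 RefSeq promoter windows of the same length, searched on both strands, TGACATCA was in 2.37%, the CArG box in 1.16%, CCAAT in 32.0% and TATAAA in 10.7%. Of the 8 members with a window, CCAAT was found in JUN, JUNB and JUND, and TATAAA in FOS, FOSB and JUNB. The cyclic AMP response element TGACGTCA (1.65% of windows) was found in JUND, and the consensus AP-1 site TGANTCA (6.57% of windows) in 0 of the 8. None of these motifs overlapped another. A match of letters is not evidence of binding. Bases farther upstream were not searched, so a motif not found in a window may still lie outside it.

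Values are TPM, the share of a library's transcripts that a gene makes up after correction for transcript length, so levels may be compared between genes. TPM keeps no read depth, and the depth behind each value is unknown. Between 14706 and 15355 genes were at 1 TPM or more in each library, ERCC spike-ins took 0.805 to 1.97% of the TPM and mitochondrial genes 12.7 to 16.6%. SMARCA4 was at 73.44 and 97.01 TPM in si-NT and 17.48 to 21.7 TPM in BRG1 depleted libraries at 72 h, and at 94.5 and 106.59 against 11.42 to 17.44 TPM at 144 h, so the target was low in all 8 depleted libraries. All 7 luminal markers of LNCaP were expressed, with a sum between 1602 and 2431 TPM. Basal markers summed to at most 0.38 TPM, immune markers to at most 0.87 TPM and the 2 endothelial markers found in the table to at most 0.80 TPM, while of the 3 fibroblast markers COL1A1 reached 9.11 TPM and COL1A2 was listed at 0 in every library. As in any bulk RNA sample, fewer cells of a type and less RNA per cell cannot be told apart.

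**Figure D1:**
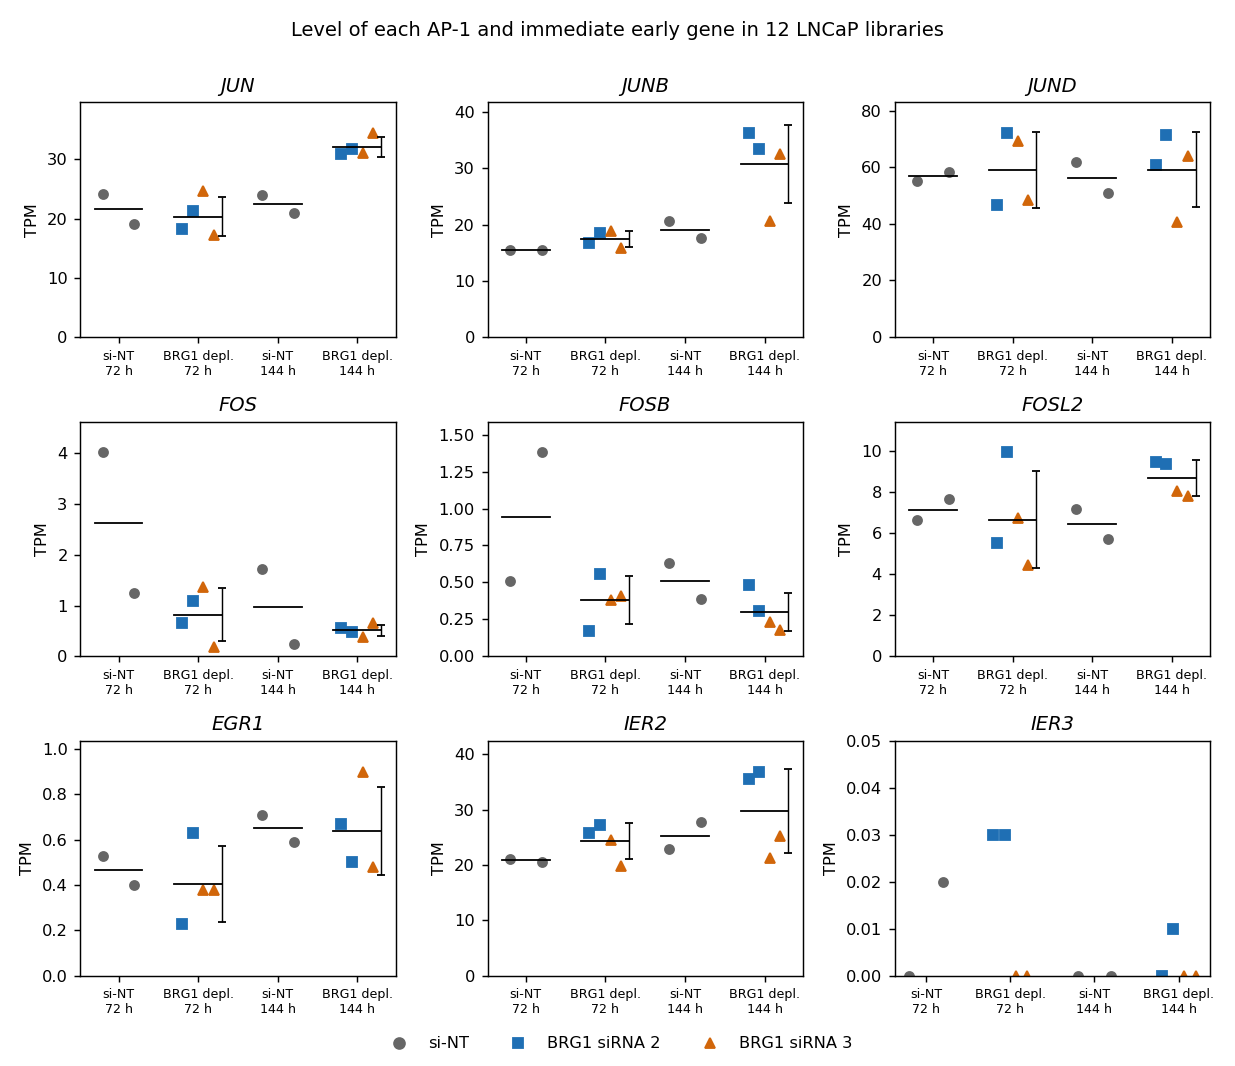
Each panel plots the TPM of 1 gene (vertical axis, from 0) in the 12 libraries, grouped along the horizontal axis by treatment and time; circles are si-NT, squares siRNA 2 and triangles siRNA 3, lines are group means, and error bars, drawn for the groups of 4, are SD (no mean is drawn for IER3). The 4 BRG1 depleted libraries at 144 h sit between 30.94 and 34.45 TPM for JUN, above every other library, while FOS, FOSB, EGR1 and IER3 lie near the bottom of the range of expression.

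The members spanned a wide range of levels. JUND was the most abundant, with a mean of 58.3 TPM over the 12 libraries, followed by IER2 (25.7), JUN (24.8), JUNB (21.9) and FOSL2 (7.39), and then by FOS (1.05), EGR1 (0.533), FOSB (0.469) and IER3 (0.0075). The ranges of IER2, JUN and JUNB over the libraries overlapped, as did those of FOS, EGR1 and FOSB, so the order within these groups is not separated by their spread. JUND, at 40.66 TPM or more, stood above all other members in every library, and FOSL2, between 4.48 and 9.95 TPM, lay apart from the genes on either side of it. Of the 9 members, 6 passed the filter of at least 1 TPM in at least 2 libraries and were tested with limma among 16337 genes. FOSB, EGR1 and IER3 did not and are given as values. FOS passed with 5 libraries at 1 TPM or more, 3 of them si-NT libraries.

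JUN, a strong activator among the AP-1 subunits (ENSG00000177606.5, chr1:59242517-59249720, reverse strand, GRCh37), was higher in BRG1 depleted cells at 144 h and not at 72 h. At 72 h it was at 24.17 and 19.03 TPM in si-NT, at 18.25 and 21.26 TPM with siRNA 2 and at 24.62 and 17.17 TPM with siRNA 3. At 144 h the si-NT libraries held 24.01 and 20.92 TPM, siRNA 2 gave 30.94 and 31.82 TPM and siRNA 3 gave 31.03 and 34.45 TPM. The groups overlapped at 72 h. At 144 h all 4 depleted libraries were above both si-NT libraries, with little spread between the siRNAs. The means at 144 h were 32.1 ± 1.64 TPM (SD, n = 4) against 22.5 ± 2.18 TPM (SD, n = 2), a ratio of 1.43. On the log2(TPM + 1) scale the change was 0.50 (SE 0.143, limma adjusted p = 0.0268) at 144 h and -0.09 (SE 0.143, adjusted p = 0.843) at 72 h. The call at 144 h was lost without si-NT replicate 1 (adjusted p = 0.0723), si-NT replicate 2 (0.228) or siRNA 3 replicate 2 (0.0539), with no filter on low values (0.0538), and under scaling to the ERCC spike-ins, where the change was 0.11 and the median gene moved by -0.31.

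JUNB (ENSG00000171223.4, chr19:12902300-12904129, forward strand), which often acts as a weaker activator and can oppose JUN, followed a similar course with more spread. At 72 h it stood at 15.57 and 15.45 TPM in si-NT, 16.79 and 18.48 TPM with siRNA 2, and 18.84 and 15.82 TPM with siRNA 3. At 144 h it was at 20.67 and 17.58 TPM in si-NT, 36.31 and 33.52 TPM with siRNA 2, and 20.62 and 32.65 TPM with siRNA 3. At 144 h 3 of the 4 depleted libraries were far above si-NT, and the exception, siRNA 3 replicate 1, was just below the higher si-NT library, so the groups overlapped. At 72 h the depleted libraries were all above si-NT, but by small amounts. The means at 144 h were 30.8 ± 6.95 TPM (SD, n = 4) and 19.1 ± 2.18 TPM (SD, n = 2), a ratio of 1.61, and the log2 change was 0.63 (SE 0.185, limma adjusted p = 0.0283). At 72 h it was 0.16 (SE 0.185, adjusted p = 0.768), and -0.03 with ERCC scaling. The call at 144 h was lost under ERCC scaling (change 0.24), with no filter (adjusted p = 0.0653), with only the 6 libraries of the time point (0.0839), and without si-NT replicate 1 (0.0786) or 2 (0.225), siRNA 2 replicate 1 (0.0623) or 2 (0.0599), or siRNA 3 replicate 2 (0.0568). The annotated gene overlaps an exon of HOOK2 on the opposite strand, which was at 61.0 to 101.39 TPM with a log2 change of 0.14 (adjusted p = 0.529) at 144 h. The library kit marks strand, but the strand setting of the counting is not given in the sources used here, so reads of such overlapping pairs may not be separated.

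JUND (ENSG00000130522.4, chr19:18390504-18392432, reverse strand), the JUN protein most linked to resting cells, was variable but not called. At 72 h its values were 55.3 and 58.5 TPM in si-NT, 46.75 and 72.19 TPM with siRNA 2, and 69.43 and 48.36 TPM with siRNA 3. At 144 h they were 61.76 and 50.85 TPM in si-NT, 60.76 and 71.47 TPM with siRNA 2, and 40.66 and 64.05 TPM with siRNA 3. The depleted libraries lay on both sides of si-NT at each time point. The log2 changes were 0.03 (SE 0.227, limma adjusted p = 0.971) at 72 h and 0.05 (SE 0.227, adjusted p = 0.899) at 144 h, and both turned negative with ERCC scaling (-0.16 and -0.35), as did the value at 72 h with median-of-ratios scaling (-0.04) and quantile normalisation (-0.01).

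FOS (ENSG00000170345.5, chr14:75745529-75748933, forward strand), the classical serum-induced partner of JUN, was at low levels throughout. At 72 h it was at 4.02 and 1.25 TPM in si-NT, 0.65 and 1.1 TPM with siRNA 2, and 1.37 and 0.18 TPM with siRNA 3. At 144 h it was at 1.72 and 0.24 TPM in si-NT, 0.55 and 0.48 TPM with siRNA 2, and 0.39 and 0.65 TPM with siRNA 3. The highest value, in si-NT replicate 1 at 72 h, was 22.3 times the lowest, and the 2 si-NT libraries of each time point differed more from each other than the group means did. At 72 h 3 of 4 depleted libraries had less than either control, and at 144 h all 4 lay between them. The log2 change was -0.93 (SE 0.378, unadjusted p = 0.0308, limma adjusted p = 0.278) at 72 h and -0.28 (SE 0.378, adjusted p = 0.637) at 144 h. With a library left out the change at 72 h ran from -1.51 to -0.35, the latter without si-NT replicate 1 of that time point. Without si-NT replicate 1 of 144 h the change at 144 h was 0.29, in the other direction.

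FOSB (ENSG00000125740.9, chr19:45971253-45978437, forward strand), another inducible FOS protein, was under 1 TPM in 11 libraries. It was at 0.51 and 1.38 TPM in si-NT, 0.17 and 0.56 TPM with siRNA 2 and 0.38 and 0.41 TPM with siRNA 3 at 72 h. At 144 h it was at 0.63 and 0.39 TPM in si-NT, 0.48 and 0.31 TPM with siRNA 2 and 0.23 and 0.18 TPM with siRNA 3. At each time point 3 of 4 depleted libraries fell short of both controls and the groups overlapped. FOSB shares exon sequence, on the opposite strand, with the DNA repair gene ERCC1, which was far more abundant at 33.49 to 50.22 TPM.

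FOSL2 (ENSG00000075426.7, chr2:28615315-28640184, forward strand), a FOS protein without the strong activation domain of FOS, was the main FOS family transcript. At 72 h it was at 6.64 and 7.66 TPM in si-NT, 5.51 and 9.95 TPM with siRNA 2, and 6.75 and 4.48 TPM with siRNA 3. At 144 h it was at 7.21 and 5.73 TPM in si-NT, 9.5 and 9.37 TPM with siRNA 2, and 8.07 and 7.84 TPM with siRNA 3. The groups overlapped at 72 h and not at 144 h, when all 4 depleted libraries were above both si-NT libraries. The change was not called at either time: -0.13 on the log2 scale (SE 0.224, limma adjusted p = 0.849) at 72 h and 0.38 (SE 0.224, adjusted p = 0.248) at 144 h, where ERCC scaling gave 0.02. FOSL2-AS1, on the opposite strand over a FOSL2 exon, was at 0.01 to 0.09 TPM.

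The make-up of the AP-1 transcripts shifted with these levels. Summed over JUN, JUNB, JUND, FOS, FOSB, FOSL1 and FOSL2, the AP-1 subunits came to between 86.8 and 147.55 TPM in a library. At 144 h the sum was 96.21 and 116.25 TPM in si-NT and 139.11, 147.55, 101.12 and 140.09 TPM in the depleted libraries, where siRNA 3 replicate 1 was again the low one and lay within the si-NT range. JUND made up 52.9 and 53.1% of the sum in si-NT and 40.2 to 48.4% in depleted libraries at 144 h, so these groups did not overlap. At 72 h the JUND share was 51.9 and 56.5% in si-NT and 52.7 to 58.2% after depletion, with overlap. The FOS family was a small share in all libraries, 6.31 to 10.9%. At 72 h it was 10.27 and 10.87% in si-NT and 6.31 to 9.73% after depletion, without overlap. At 144 h it was 7.13 and 8.44% against 6.38 to 8.71%, with overlap. FOSL2 made up 57.3 to 91.6% of the FOS family. Its part was 57.3 and 72.0% in si-NT and 75.6 to 82.4% after depletion at 72 h, and 73.5 and 83.5% against 85.6 to 91.6% at 144 h, without overlap at either time. The low values of FOS and FOSB enter these shares. These shares are descriptions of the libraries and were not tested.

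**Figure D2:**
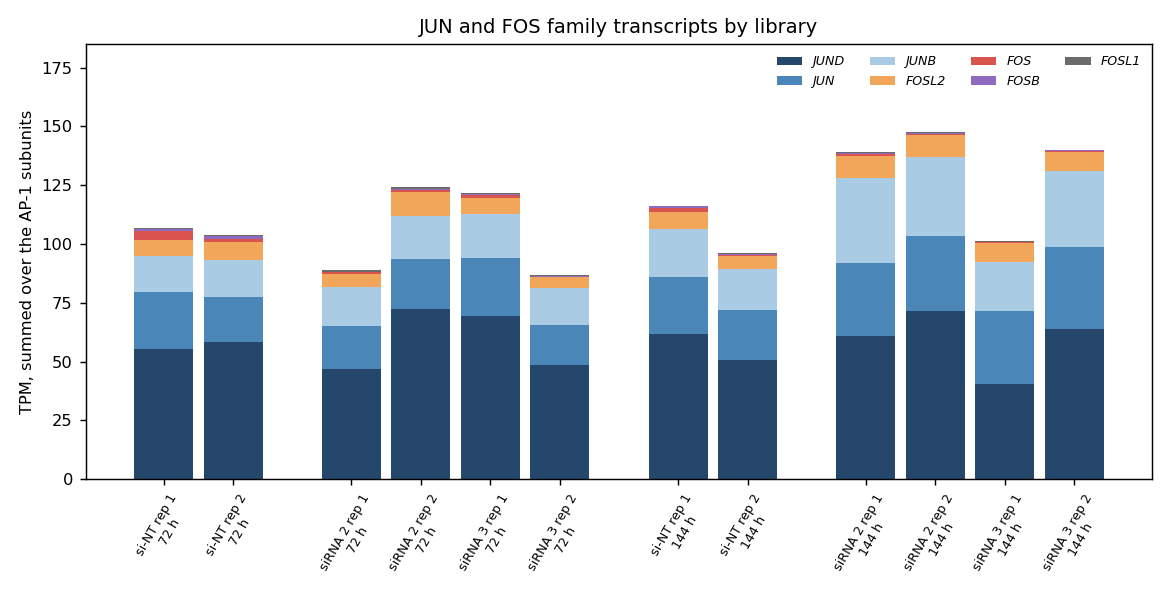
Stacked bars give the TPM of the 7 JUN and FOS family transcripts (vertical axis, from 0) in each of the 12 libraries along the horizontal axis, ordered by treatment and time. JUND, JUN and JUNB form most of each bar, and 3 of the 4 BRG1 depleted bars at 144 h, between 139.11 and 147.55 TPM, are taller than all the others.

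EGR1 (ENSG00000120738.7, chr5:137801168-137804992, forward strand), a zinc finger factor induced through the CArG boxes shown above, was under 1 TPM in every library. It was at 0.53 and 0.4 TPM in si-NT, 0.23 and 0.63 TPM with siRNA 2, and 0.38 and 0.38 TPM with siRNA 3 at 72 h. At 144 h it was at 0.71 and 0.59 TPM in si-NT, 0.67 and 0.5 TPM with siRNA 2, and 0.9 and 0.48 TPM with siRNA 3. The depleted libraries lay around the si-NT libraries at both time points, and the highest and lowest values of all were both in depleted libraries.

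IER2 (ENSG00000160888.6, chr19:13261225-13265725, forward strand), a nuclear protein named for its rapid induction, was in contrast well expressed. At 72 h it was at 21.18 and 20.63 TPM in si-NT, 25.89 and 27.17 TPM with siRNA 2, and 24.49 and 19.76 TPM with siRNA 3. At 144 h it was at 22.93 and 27.77 TPM in si-NT, 35.56 and 36.89 TPM with siRNA 2, and 21.32 and 25.3 TPM with siRNA 3. Both siRNA 2 libraries exceeded si-NT at each time point, while at 144 h 1 siRNA 3 library was lower than both controls and the other between them. Against si-NT the log2 change was 0.20 (SE 0.204, limma adjusted p = 0.728) at 72 h and 0.19 (SE 0.204, adjusted p = 0.531) at 144 h, where it was -0.19 with ERCC scaling. ENSG00000267598, on the opposite strand over an IER2 exon, was at 0 to 0.56 TPM.

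IER3 (ENSG00000137331.11, chr6:30710976-30712325, reverse strand), a stress-induced gene linked to cell survival, was listed at 0 in 8 libraries and at no more than 0.03 TPM in the others. The libraries above 0 were si-NT replicate 2 at 72 h (0.02 TPM), both siRNA 2 libraries at 72 h (0.03 TPM each) and siRNA 2 replicate 2 at 144 h (0.01 TPM). HLA-E, a widely expressed gene 249005 bases away, was also listed at 0 in all 12 libraries, whereas FLOT1, which lies 467 bases from IER3, was at 5.1 to 9.03 TPM and TUBB at 78.47 to 123.83 TPM. A value of 0 can be a failed estimate, so the gene is given only as listed at 0. IER3-AS1, on the opposite strand over an IER3 exon, was at 11.34 and 9.97 TPM in si-NT and 17.75 to 23.57 TPM in depleted libraries at 144 h, without overlap, and rose by 0.87 on the log2 scale (SE 0.140, limma adjusted p = 0.00165). At 72 h IER3-AS1 was at 12.98 and 13.31 TPM in si-NT and 16.26 to 22.68 TPM in depleted libraries, also without overlap. Its log2 change there was 0.51 (SE 0.140, limma adjusted p = 0.111), and 0.69 (SE 0.099, limma adjusted p = 0.000708) in the mean of both time points. How its calls fared under the alternatives is not given here. IER3-AS1 was no member and was described because it overlaps IER3.

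The comparisons of BRG1 depleted cells with si-NT asked which genes depend on BRG1 at an early and a late time. At 72 h 0 of the 6 tested members passed an adjusted p of 0.05 in limma (1 at an unadjusted p under 0.05), where 1.68% of all tested genes passed (1.13% higher and 0.557% lower). At 144 h 2 of the 6, JUN and JUNB, were up-regulated and 0 were down-regulated, where 24.4% of all genes passed (13.6% higher and 10.8% lower). Against this background, 2 calls among 6 genes are no result about the members as a group. The median log2 change of the tested members was -0.03 at 72 h and 0.29 at 144 h, beside 0.06 and 0.03 over all tested genes. In the mean of both time points JUNB alone was called, at 0.40 (SE 0.131, limma adjusted p = 0.0456), where 24.7% of genes passed. Of the 12 fits that each left out 1 library, the one without siRNA 3 replicate 1 at 144 h kept this call, and the other 11 lost it, with adjusted p up to 0.174.

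**Figure D3:**
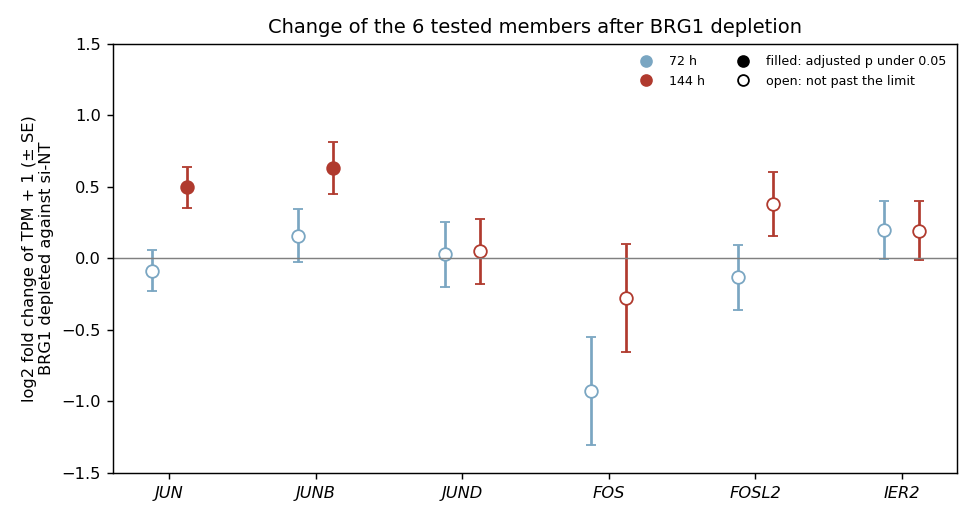
Points show the log2 fold change of TPM + 1 between BRG1 depleted and si-NT libraries (vertical axis) for the 6 tested members (horizontal axis) at 72 h (blue) and 144 h (red), with bars of 1 SE; filled points passed an adjusted p of 0.05. JUN (0.50) and JUNB (0.63) at 144 h are the filled points, and FOS at 72 h (-0.93, SE 0.378) is an open point that moves to -0.35 without si-NT replicate 1.

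The difference between both time points was tested for its own sake. For 0 of the 6 members did the change at 144 h differ from that at 72 h after adjustment in limma (1 at an unadjusted p under 0.05), and 0.0184% of all genes did. JUN came closest, with a difference of 0.58 (SE 0.203, unadjusted p = 0.0143, limma adjusted p = 0.327), so its rise at 144 h was not shown to differ from its change at 72 h. Within the depleted cells, JUN rose by 0.64 (SE 0.117, limma adjusted p = 0.0144) and JUNB by 0.75 (SE 0.151, adjusted p = 0.0211) from 72 h to 144 h, 2 of the 6 members, where 4.27% of genes passed (2.58% higher and 1.68% lower). The 4 depleted libraries of each time point did not overlap for either gene. This comparison shares its 144 h libraries with the contrast against si-NT above. The call for JUNB was lost without siRNA 2 replicate 1 or siRNA 3 replicate 2 at 72 h, or without siRNA 2 replicate 1, siRNA 2 replicate 2 or siRNA 3 replicate 2 at 144 h, with adjusted p up to 0.0601. Between the si-NT libraries of 144 h and 72 h 0 members and 0% of all genes passed in limma, with 0 members at an unadjusted p under 0.05. JUN and JUNB differed there by 0.06 (SE 0.165) and 0.28 (SE 0.213). With 2 si-NT libraries on each side this comparison resolves large differences only, so it does not show that the si-NT cells stayed unchanged.

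The siRNAs were compared with each other to see whether the members moved alike with both. In limma 0 of the 6 members differed between siRNA 3 and siRNA 2 at 72 h (0 at an unadjusted p under 0.05), where 0.141% of genes did, and 0 at 144 h (1 at an unadjusted p under 0.05), where 0.331% did. IER2 at 144 h had the strongest difference, lower with siRNA 3 by a log2 value of -0.62 (SE 0.136, unadjusted p = 0.00125, limma adjusted p = 0.121). JUNB was also lower with siRNA 3 at 144 h, by -0.41 (SE 0.190, adjusted p = 0.389), while JUN differed by 0.06 (SE 0.177, adjusted p = 0.918). With 2 libraries for each siRNA these tests resolve large differences only. The labels of 1 sample disagree on its siRNA, so a library may stand on the wrong side of this comparison.

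Genes around the members in the pathway were described in 5 lists, whose counts at 144 h stand beside the 24.4% of all genes that passed there (13.6% higher and 10.8% lower). Of 13 other leucine zipper partners of AP-1, 9 were tested, and at 144 h 1 of the 9, MAF, a large MAF factor, was up-regulated and 0 were down-regulated. MAF rose by 0.79 (SE 0.188, limma adjusted p = 0.0117) from 0.57 and 0.85 TPM to 1.53 to 2.28 TPM, and the call was lost with ERCC scaling (adjusted p = 0.263) and without si-NT replicate 2 at 144 h (0.134). At 72 h the si-NT libraries had MAF at 1.12 and 1.07 TPM. JDP2, a repressor that pairs with JUN proteins, fell at 72 h from 18.52 and 20.23 TPM to 7.45 to 12.44 TPM (log2 change -0.94, SE 0.197, adjusted p = 0.0389). The call at 72 h was kept in 2 of the 12 fits that left out 1 library, with adjusted p up to 0.204. At 144 h its change was -0.53 (adjusted p = 0.0692). In the mean of both time points it was -0.74 (SE 0.139, limma adjusted p = 0.0032), short of the log2 fold change limit of 1.5 that was run as an alternative. With a library left out this change ran from -0.84 to -0.63. The call was kept in 10 of 10 refits with another pseudocount, filter, scaling or model. The median log2 change of this list at 144 h was -0.06, beside 0.03 for all genes.

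Of 30 other immediate early genes 24 were tested, and at 144 h 6 rose (DUSP1, IER5L, KLF6, MCL1, NFKBIZ and RHOB) and 2 fell (DUSP5 and IER5), while 16 did not pass (8 of 24 called, beside 24.4% of all genes). RHOB, a stress-inducible small GTPase, was at 80.75 and 93.31 TPM in si-NT and 144.58 to 200.95 TPM in depleted libraries (log2 change 0.91, SE 0.154, limma adjusted p = 0.00201). DUSP1, a phosphatase that switches MAP kinases off, was at 14.25 and 15.33 TPM against 19.13 to 38.64 TPM (0.89, SE 0.236, adjusted p = 0.0187). IER5, named like IER2 and IER3 for its rapid induction, was at 6.79 and 8.01 TPM against 2.97 to 4.29 TPM (-0.84, SE 0.198, adjusted p = 0.0109). At 72 h the si-NT libraries had DUSP1 at 18.19 and 22.73 TPM and IER5 at 7.14 and 3.68 TPM. From 72 h to 144 h the depleted cells changed by 0.33 for DUSP1 (limma adjusted p = 0.336) and 0.04 for IER5 (0.914). Over the same time si-NT changed by -0.44 and 0.44 (limma adjusted p = 0.974 for each). ERCC scaling ended the calls for RHOB (adjusted p = 0.298) and DUSP1 (0.367), and leaving out si-NT replicate 2 at 144 h those for DUSP1 (0.137) and IER5 (0.122). The call for DUSP1 was also lost without si-NT replicate 1 (0.0846). The median of the list was 0.34, against 0.03 for all genes, and at 72 h 0 of the 24 were called (6 at an unadjusted p under 0.05).

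Of 22 kinases and factors that induce these genes, 21 were tested and 3 were called at 144 h, beside 24.4% of all genes. At 144 h MAPK3 (ERK1) rose by 0.53 (SE 0.163, limma adjusted p = 0.035) while RPS6KA3 (RSK2, a kinase below ERK) fell by 0.53 (SE 0.118, adjusted p = 0.00844) and MAPK8 (JNK1, which phosphorylates JUN) fell by 0.53 (SE 0.165, adjusted p = 0.0381). MAPK3 was at 47.69 and 50.1 TPM in si-NT and 59.11 to 83.74 TPM after depletion, RPS6KA3 at 9.97 and 12.33 against 6.69 to 8.28 TPM, and MAPK8 at 38.5 and 43.7 against 23.8 to 32.79 TPM. The calls for MAPK3 and MAPK8 were each kept in 8 of the 12 fits with a library left out, with adjusted p up to 0.201 and 0.227. With no filter they were at 0.0773 and 0.0815, and with 6 groups MAPK8 was at 0.0547. With ERCC scaling, where the median gene moved by -0.31, the change of MAPK3 was 0.13 (limma adjusted p = 0.828). MAPK8 (-0.92, adjusted p = 0.11) and RPS6KA3 (-0.88, adjusted p = 0.0873) also lost their calls there, although their falls were larger. RPS6KA3 otherwise lost its call without si-NT replicate 2 at 144 h (0.144). The other 18 did not pass, and the median of the list was 0.06.

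Of 11 feedback inhibitors of the same kinases, 8 were tested, and at 144 h 2 were called higher (DUSP10 and SPRY4) and 3 lower (DUSP7, SPRED2 and SPRY1), beside 24.4% of all genes, with a median of -0.17. SPRY4, which restrains receptor signalling to ERK, was at 0.08 and 0.2 TPM in si-NT and 3.64, 2.9, 1.79 and 3.11 TPM in depleted libraries at 144 h. It had been at 0.21 to 0.36 TPM in depleted libraries at 72 h, above 0.08 and 0.19 TPM in si-NT. It passed the filter only through the depleted libraries of 144 h, so its values are given without a test and its place in the count carries that limit. SPRY1 fell by 0.61 (SE 0.199, limma adjusted p = 0.0435), from 3.67 and 4.07 to 1.75 to 2.77 TPM. SPRED2, a related inhibitor, fell by 0.58 (SE 0.169, adjusted p = 0.0272), from 6.55 and 6.87 to 3.08 to 4.87 TPM. With ERCC scaling their changes were larger, at -0.90 and -0.91, while the median gene moved by -0.31. The call for SPRY1 was kept in 4 of the 12 fits with a library left out (adjusted p up to 0.243), and was lost with no filter (0.105), ERCC scaling (0.102) or combined si-NT libraries (0.0889). The call for SPRED2 was kept in 9 of 12 (up to 0.174), and was lost with no filter (0.0604), ERCC scaling (0.104) or only the 6 libraries of the time point (0.056).

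Of 16 targets of AP-1 known from other cells, 4 passed the filter and the other 12 were under it. PLAUR, the urokinase receptor, was the 1 of the 4 called at 144 h, beside 24.4% of all genes, where it was at 1.07 and 1.2 TPM in si-NT and 0.19 to 0.54 TPM after depletion. It passed the filter only through 3 si-NT libraries (1.29 TPM in the one at 72 h), with every depleted library at 0.79 TPM or less, so its values are given without a test.

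**Figure D4:**
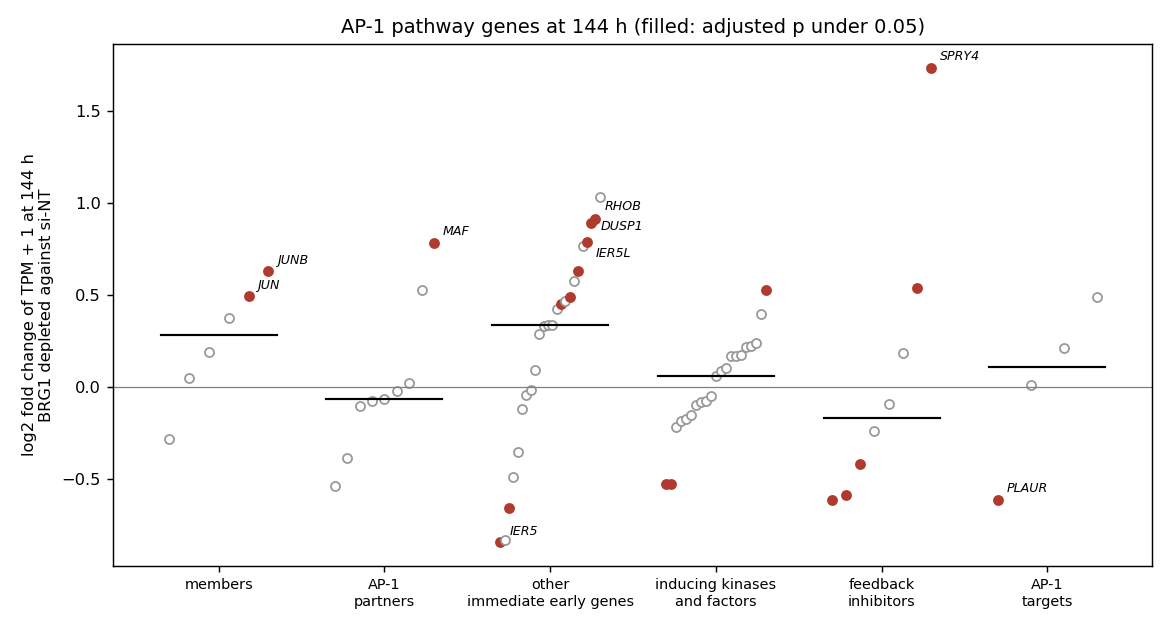
Each point is the log2 fold change of TPM + 1 at 144 h (vertical axis) of a tested gene, for the members and the 5 pathway lists along the horizontal axis; filled points passed an adjusted p of 0.05 and lines are list medians. The lists of immediate early genes, kinases and feedback inhibitors hold filled points on both sides of 0, and those of SPRY4 and PLAUR passed the filter only through the group where they are high.

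Markers of stress and of a response to transfected RNA were read beside these results. Of 5 heat shock genes 4 were tested and 0 were called at 144 h in limma (1 at an unadjusted p under 0.05), where 24.4% of all genes passed. Their sums at 144 h were 268 and 285 TPM in si-NT and 231 to 269 TPM in depleted libraries. Of 6 interferon-response genes 4 were tested, and at 144 h 0 were called higher and 2 lower, beside the same 24.4%. MX1 was lower at 144 h, by -0.97 (limma adjusted p = 0.00356). IFIT1 was also called lower, but reached 1 TPM only in 3 si-NT libraries (1.34 TPM at 72 h, 1.13 and 1.38 TPM at 144 h), with every depleted library at 0.87 TPM or less. ISG15, the most abundant of them, was at 68.25 and 73.22 TPM in si-NT and 76.59 to 115.97 TPM in depleted libraries (0.39, adjusted p = 0.0597). In the mean of both time points, where 24.7% of all genes passed, MX1 and IFIT1 were again called lower. HSPH1, a heat shock gene, was called lower there (-0.25, limma adjusted p = 0.0344) and ISG15 higher (0.33, limma adjusted p = 0.0281). How these calls fared under the alternatives is not given here. The part of these markers in the results on JUN and JUNB was not tested.

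Over the 12 libraries the genes whose log2(TPM + 1) followed the members most closely were ranked by Pearson's r among 15194 genes with a mean of at least 1 TPM. For JUN they were SLC25A1, the mitochondrial citrate carrier (r = 0.914, Spearman's rank correlation 0.923), and 2 genes without a symbol, ENSG00000267010.1 (0.915, rank correlation 0.93) and ENSG00000268928.1. The last had the same value as SLC25A1 in each of the 12 libraries, so this pair does not count as separate measurements. For FOS the closest genes were AP1G2 (r = 0.869, rank correlation 0.795), ANKRD37 (0.854, rank correlation 0.75) and HTR5A-AS1 (0.85, rank correlation 0.635). For EGR1 they were NNT (0.833, rank correlation 0.816), YAF2 (0.827, rank correlation 0.827) and DUSP4 (0.809, rank correlation 0.832). These values describe 12 libraries that share treatment, time and scaling, and they carry no p. They are the highest found in a search of 15194 genes, and EGR1 was under 1 TPM in every library. Without the 2 libraries farthest from the member's median, r ran from 0.896 to 0.901 for JUN, from 0.76 to 0.847 for FOS and from 0.668 to 0.82 for EGR1.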

How the data were processed

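RNA-seq libraries of LNCaP cells were made with a stranded mRNA kit. Per the submitters' processing notes, reads were handled with Trim Galore 0.11.2, FastQC and STAR 2.4.0j on hg19 (GRCh37). The study's methods state counting with featureCounts, normalisation of counts to ERCC spike-ins and TPM on GENCODE genes. The authors deposited TPM, each column of which has the same sum over genes and the 92 spike-ins, so the spike-in scaling is not kept, and 0 value columns were unmatched to a sample or group.

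TPM was taken to log2 with a pseudocount of 1. The filter kept 16337 genes at 1 TPM or more in 2 or more libraries, tested in limma 3.58.1 (R 4.3.3; eBayes with trend) in 4 groups over 12 libraries, and in 6 groups between the siRNAs, with Benjamini-Hochberg adjustment and calls at an adjusted p under 0.05. The log2 scale with a pseudocount understates the change of low genes. The labels give no batch.

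Members, lists and naming rules were chosen with earlier results of these data known. 1 gene of the lists is not reported here and was left out of their counts. From each list up to 3 called genes with the largest absolute change at 144 h are described, and for FOS, JUN and EGR1 the 3 genes most like them. Other list genes were named because they were counted, and IER3-AS1 and HOOK2 because they overlap a member.

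Symbols and GRCh37 positions came from a GENCODE annotation lifted to GRCh37, a later release than the authors' GENCODE, and gene identifiers from the deposited table. RefSeq promoter windows were placed on GRCh37 by exact match, with a window for 8 of 9 members. Python 3.11.15, pandas 2.3.3, NumPy 2.4.6 and matplotlib 3.10.9 were used.

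Alternatives were another pseudocount (0.1), no filter, a mean of at least 5 TPM, median-of-ratios, quantile and ERCC scaling, a replicate block, eBayes without trend, 6 libraries of 1 time point, 6 groups, a log2 fold change limit of 1.5, combined si-NT libraries, and leaving out each library. 1 sample has labels that disagree on which siRNA it received. This does not affect its group of BRG1 depleted libraries, but may affect values given by siRNA and the comparison between the siRNAs.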

Additional observations from a re-analysis of the deposited data

Results flagged for a closer look

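Among 18 groups of 4 depleted libraries (9 genes at 2 time points), 1 library stood apart from the other 3: IER3 in siRNA 2 replicate 2 at 144 h, at 0.01 TPM against 0 TPM in the other 3. The value is the smallest step above 0 that the table writes. Chance flags about 1 in 20 groups. For 0 members did the change differ between 144 h and 72 h after adjustment in limma (1, JUN, at an unadjusted p under 0.05).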

How the results depend on the processing

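JUN and JUNB kept a positive log2 change at 144 h under every alternative run, from 0.11 to 0.59 and from 0.24 to 0.81, but their calls were fragile. With 2 si-NT libraries for each time point, 1 control library decides many calls: of 14 genes called at 144 h (JUN, JUNB, SMARCA4 and 11 list genes, namely MAF, RHOB, DUSP1, IER5, MAPK3, RPS6KA3, MAPK8, SPRY4, SPRY1, SPRED2 and PLAUR), 11 lost the call without si-NT replicate 2 and 8 without si-NT replicate 1, and the lone control is then assumed to vary like the other groups. Among these 14, SPRY4 and PLAUR passed the filter only through the group where they are high, so their calls carry that limit. TPM keeps no depth, so the error of low values such as FOS and EGR1 is not known.

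Members called at 144 h (2) came to 0 with a log2 fold change limit, without a filter or with ERCC scaling, to 1 with only the 6 libraries of the time point, and to 0 to 2 with a library left out. In the mean of both time points (1) the count was 0 with the fold change limit, without a filter, and with median-of-ratios, quantile or ERCC scaling, the replicate block or eBayes without trend, and 0 to 1 with a library left out; without si-NT replicate 2 at 72 h the gene called was FOS. Between BRG1 depleted cells at 144 h and 72 h (2) it was 0 with the fold change limit or ERCC scaling, 1 without a filter, and 1 to 2 with a library left out. In the other 5 comparisons of the members the count was 0 under every alternative run. Genes called in the 5 pathway lists at 144 h (18 of 66) were 1 with the fold change limit, 2 with ERCC scaling and 3 to 21 with a library left out. At 72 h (1) they were 0 with the fold change limit, ERCC scaling, only the 6 libraries, 6 groups or the replicate block, 6 with combined si-NT libraries and 0 to 1 with a library left out. The 18 list genes at 144 h include SPRY4 and PLAUR, which passed the filter only through the group where they are high. SPRY4 (log2 change 1.74) is the 1 gene past the fold change limit, so that count carries the same limit. The cause of these shifts in the counts was not tested beyond the smaller number of libraries or genes that an alternative has by construction.

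Replicate numbers did not pair the libraries: over 15 pairs of conditions the correlation of same-numbered deviations ran from -0.23 to 0.30, and 2 were over 0.1. With the replicate block 2 members were called at 144 h and 0 in the mean of both time points, and JDP2 at 72 h was no longer called (adjusted p = 0.0581).

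ERCC scaling moved the median gene by -0.11 at 72 h and -0.31 at 144 h. It turned the sign of JUNB (-0.0256), JUND (-0.16) and DUSP1 (-0.064) at 72 h and of JUND (-0.35) and IER2 (-0.19) at 144 h. Relative to the median gene, JUN and JUNB at 144 h were at 0.42 and 0.56. JUND at 72 h also turned with median-of-ratios (-0.0378) and quantile scaling (-0.0107). With a library left out, the change at 72 h crossed 0 for FOSL2 (-0.32 to 0.0126), JUN (-0.25 to 0.0774), JUND (-0.0747 to 0.13), DUSP1 (-0.0292 to 0.28), MAPK8 (-0.34 to 0.12), SPRY1 (-0.48 to 0.18) and PLAUR (-0.45 to 0.0466), and at 144 h for FOS (-0.84 to 0.29) and JUND (-0.0888 to 0.22). None of these was called in the results above. Of 862 values for single genes under an alternative, 763 kept direction and side of the limit, 73 lost a call, 6 gained one and 20 changed sign.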
